A study of Homo sapiens with 6 samples.

Results

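The genes described here are 10 mesenchymal and epithelial-mesenchymal transition (EMT) genes, followed in D283 tumorspheres after knockdown of the homeobox factor OTX2. They are the transcription factors SNAI1, SNAI2, TWIST1, ZEB1 and ZEB2, and the adhesion, matrix and cytoskeletal genes FN1, VIM, CD44, DSG2 and LOX. They were taken from a fixed list of names, and all 10 were measured, out of 14884 genes with a single symbol in the array annotation. Each gene was read from its brightest transcript cluster, the set of probes that the array assigns to 1 transcript unit.

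D283 is a cultured line from a medulloblastoma, a malignant tumour of the cerebellum in children, and was grown here as floating spheres in a defined stem cell medium with EGF and basic FGF. OTX2 KD cells received the siRNA s9931 against OTX2 and scramble cells a non-silencing siRNA, with 3 arrays in each group, which the study's methods call biological replicates. Values are log2 expression values of whole cultures, so fewer cells that express a gene and less RNA per cell cannot be told apart. A single siRNA sequence was used on the arrays. Effects of that sequence on transcripts other than OTX2 cannot be told apart from those of the OTX2 fall.

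EMT is a change of cell state in which junctions between cells are taken down and motile, matrix-producing features are gained. The SNAIL, ZEB and TWIST factors drive it by binding E-boxes, short DNA motifs, and by repressing junction genes such as that of E-cadherin. In the nervous system the same factors are known from neural crest cells, which leave the neural tube, and from progenitors that delay their differentiation. Vimentin is a usual filament protein of neural progenitors, so it is not a mesenchymal marker by itself in such cells.

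OTX2 was lower in every OTX2 KD array (9.57 to 9.62) than in every scramble array (10.55 to 10.56), a log2 fold change of -0.97 ± 0.0734 (SE, limma, adjusted p = 8.7e-05). Its RNA stayed among the brightest clusters, at percentile 99.4 of all clusters in scramble and 98.5 in OTX2 KD. Array medians lay between 3.67 and 3.71 in OTX2 KD and between 3.60 and 3.61 in scramble, so every knockdown median was the higher. No array stood apart from its group. Across clusters r was 0.990 to 0.993 in the 6 pairs of the same group and 0.959 to 0.965 in the 9 pairs of different groups. Among markers of Group 3 and Group 4 tumours, OTX2, MYC, CRX, NPR3 and IMPG2 lay at percentile 95.2 or higher of all clusters in scramble, with BARHL1 at 71.9, UNC5D at 62.9 and EOMES at 46.3. These markers also moved with the comparison, with the first 5 lower in OTX2 KD, BARHL1 and UNC5D higher and EOMES not past the test (median log2 fold change -1.21), and their part in the results below was not tested. Markers of fibroblasts were represented by DCN, LUM and THY1, at mean levels of 2.05 to 4.26, and 0 of these 3 passed the test. Neuronal markers moved with the comparison, with 4 of 4 measured higher in OTX2 KD (MAP2, DCX, STMN2 and SYT1). The sum of their 4 log2 values on an array was 25.20 to 25.59 in scramble and 34.55 to 34.94 in OTX2 KD. That sum of logs is not a total of RNA, and the part of these markers in the results below was not tested.

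All 10 genes differed between OTX2 KD and scramble at an adjusted p below 0.05, where 39.8% of named genes and 27.9% of all clusters did. SNAI1, SNAI2, TWIST1, ZEB1, VIM, DSG2 and LOX were lower, where 23.2% of named genes were, and ZEB2, FN1 and CD44 were higher, where 16.6% were. With a limit of at least 2-fold, 5 were lower and 2 higher, beside 6.89% and 3.82% of named genes. The values of the groups did not overlap for any of the 10, which was also true of 55.5% of named genes. The median log2 fold change was -0.92 over the 10 genes and 0.00 over all named genes. Brighter genes passed the test more often, and among the 7848 named genes within the range of mean levels of the 10 (4.08 to 7.49), 53.7% passed and 16.3% passed with at least 2-fold change. The genes were chosen with earlier results of these arrays known, so these shares describe them and do not test them as a set.

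**Figure D1:**
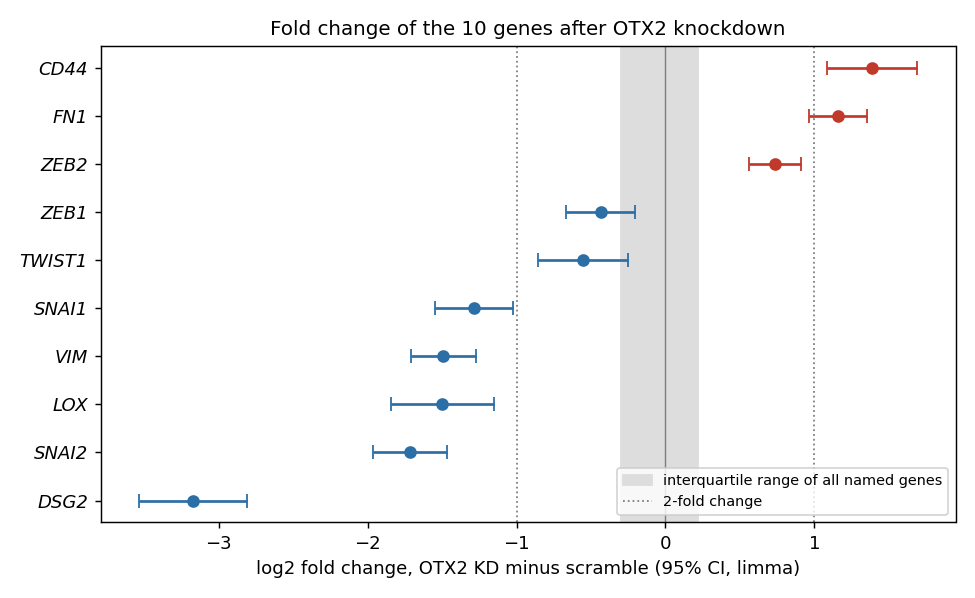
Log2 fold change (OTX2 KD minus scramble) of the 10 genes, with points for the limma estimate, bars for the 95% confidence interval, a grey band for the interquartile range of all named genes (-0.30 to 0.22) and dotted lines at 2-fold change. DSG2 lies farthest from 0 at -3.17, and ZEB2, FN1 and CD44 are the genes on the side of higher values.

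The SNAIL factors fell together. SNAI1 (Snail), which represses E-cadherin and other junction genes, read 7.21, 6.94 and 6.87 in scramble replicates 1 to 3 and 5.80, 5.73 and 5.63 in OTX2 KD replicates 1 to 3. Every knockdown value was more than 1 log2 unit below every control value. The log2 fold change was -1.29 ± 0.112 (SE), or 2.44-fold lower (limma, adjusted p = 0.000164). SNAI2 (Slug), its paralog and a factor of neural crest delamination, was at 8.44, 8.27 and 8.33 in scramble and at 6.74, 6.45 and 6.70 in OTX2 KD. The control values lay at percentile 95.8 of all clusters on average and the knockdown values at 86.5. SNAI2 was 3.28-fold lower, with a log2 fold change of -1.71 ± 0.106 (SE, adjusted p = 3.65e-05), and 316 of 14884 named genes had a larger fall. The third member of the family, SNAI3, did not pass the test (0.28, 95% CI -0.02 to 0.57, adjusted p = 0.151).

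TWIST1, a basic helix-loop-helix factor of mesoderm and cranial neural crest, changed less. It read 4.59, 4.93 and 4.72 in scramble and 4.14, 4.05 and 4.39 in OTX2 KD. The groups did not overlap, but the highest knockdown array and the lowest control array were close. The log2 fold change was -0.55 ± 0.129 (SE, adjusted p = 0.0168), and the call ended without OTX2 KD replicate 1 (adjusted p = 0.0557), OTX2 KD replicate 2 (0.0578) or scramble replicate 2 (0.0548). Of 21 genes of other tissues measured as a reference for dim clusters, 20 lay below TWIST1 in scramble and 14 in OTX2 KD, so its signal was close to theirs. Its paralog TWIST2 was at 2.48 in scramble and 2.74 in OTX2 KD and did not pass (adjusted p = 0.137).

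The paralogs ZEB1 and ZEB2 moved in opposite directions. Both are zinc finger and homeodomain repressors that bind E-boxes; ZEB1 is known to hold back neuronal differentiation in mouse cerebellar progenitors, and ZEB2 acts in neural crest and in differentiating neurons of the mouse. ZEB1 read 5.82, 6.0 and 5.95 in scramble and 5.60, 5.35 and 5.52 in OTX2 KD. The fall was small beside that of the SNAIL factors, with a log2 fold change of -0.44 ± 0.0995 (SE, adjusted p = 0.0152), and the call ended without scramble replicate 2 (adjusted p = 0.0580) or scramble replicate 3 (0.0508). ZEB2 read 5.23, 5.24 and 5.30 in scramble and 6.01, 6.01 and 5.96 in OTX2 KD. The spread within each group was the narrowest among the transcription factors, and the rise of 0.74 ± 0.0750 (SE, adjusted p = 0.000346), or 1.67-fold, stayed past the threshold whichever single array was left out. Within arrays, the log2 value of ZEB2 minus that of ZEB1 was -0.59, -0.76 and -0.65 in scramble and 0.41, 0.66 and 0.44 in OTX2 KD, a shift of 1.17. That pair was chosen after its values were seen, and its sign compares probes of unequal brightness, so only the shift can be read.

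The sequences before the ZEB1 and ZEB2 starts are shown because these paralogs parted after OTX2 knockdown. Each runs over the 250 bases before a RefSeq transcription start (GRCh38.p14), 5′ to 3′ on the gene's strand. Capitals mark TAATCT, an OTX2 motif, in ZEB2, and CAGGTG, the E-box of SNAIL and ZEB factors, in ZEB1.
ZEB1, chr10:31318167-31318416, plus strand: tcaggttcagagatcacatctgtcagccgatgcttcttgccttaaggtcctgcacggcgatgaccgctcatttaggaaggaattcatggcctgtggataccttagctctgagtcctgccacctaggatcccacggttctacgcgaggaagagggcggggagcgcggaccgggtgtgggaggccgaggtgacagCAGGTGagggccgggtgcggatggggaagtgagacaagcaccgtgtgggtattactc
ZEB2, chr2:144520120-144520369, minus strand: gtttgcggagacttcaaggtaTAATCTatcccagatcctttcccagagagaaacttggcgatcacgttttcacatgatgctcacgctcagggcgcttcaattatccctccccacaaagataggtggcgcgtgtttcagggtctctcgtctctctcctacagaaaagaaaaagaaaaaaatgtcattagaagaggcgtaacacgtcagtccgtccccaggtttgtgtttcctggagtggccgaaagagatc
Both strands were searched for the OTX2 motif TAATCC, for its variant ending in T (TAATCT) and for the E-box (CAGGTG), none of which contains another. ZEB2 held TAATCT with its first base 229 bases before the start, and ZEB1 held CAGGTG 57 bases before the farthest upstream of its 7 listed starts. CAGGTG also lay 85 and 242 bases before ZEB1 start 3, counted from the farthest upstream, and the windows of the other ZEB1 starts held none. Of 35116 windows of this length in the table, 5.62% held TAATCC, 6.41% held TAATCT and 17.5% held CAGGTG. Promoters were listed for 7 of the 10 genes, not for SNAI1, SNAI2 and TWIST1, and before their 15 starts TAATCC occurred in 0 genes, TAATCT in 1 (ZEB2) and CAGGTG in 3 (ZEB1, DSG2 and LOX). The shares count windows, whereas a gene was counted with a motif before any of its starts, so they are not directly comparable. The LOX windows that held CAGGTG overlap. A match gives letters in a window and not a bound site.

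**Figure D2:**
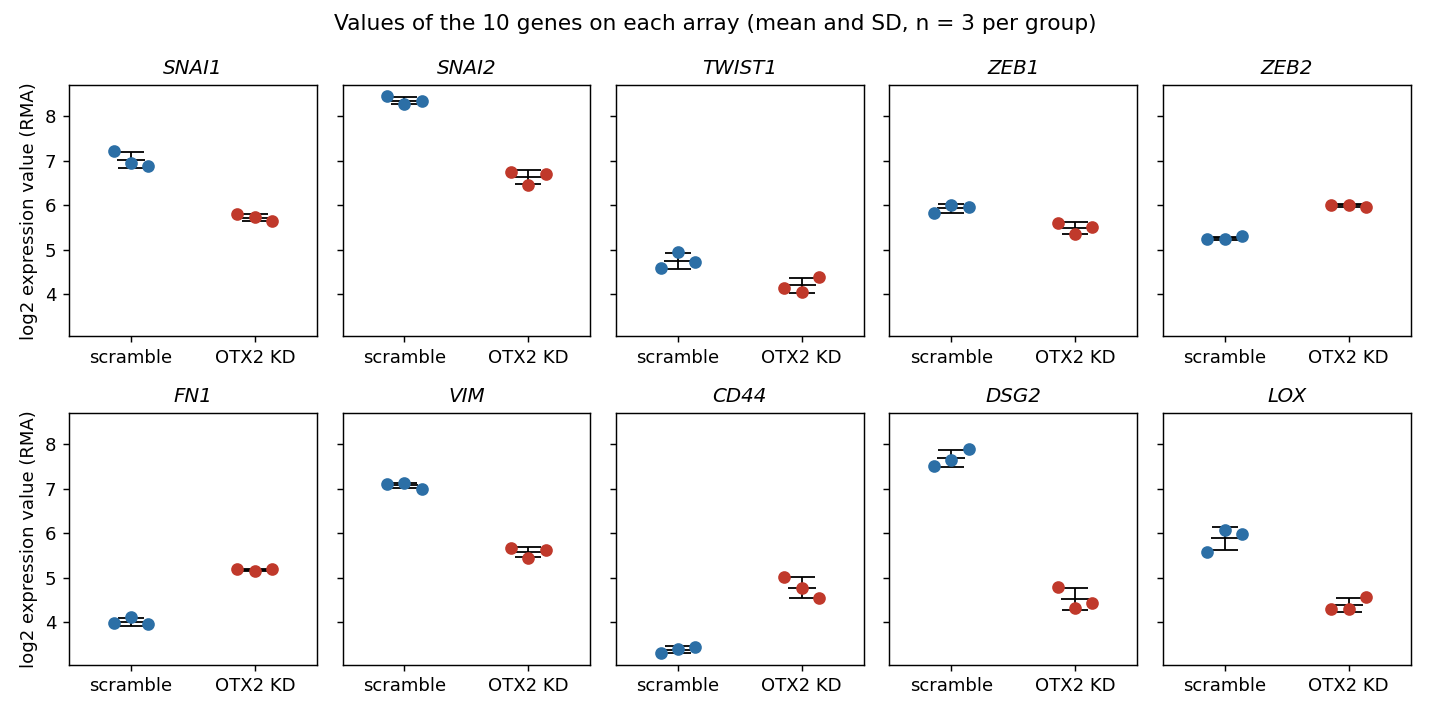
Log2 expression value (vertical axis) of each gene on the 3 scramble arrays (blue) and the 3 OTX2 KD arrays (red), with points in the order of replicates 1 to 3 and black marks for the mean and SD. The points of the groups do not overlap in any panel, and they come closest in TWIST1 (4.39 and 4.59) and ZEB1 (5.60 and 5.82).

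Other EMT factors were followed as a list. Of 11 measured, 1 passed the test as higher, 1 as lower and 9 in neither direction (median log2 fold change -0.08), where 39.8% of all named genes passed. The median level of the 11 genes was 4.25, below the 4.87 of all named genes, and brighter genes passed more often. The AP-1 subunit FOSL1, which promotes EMT in carcinoma cells, was 2.96-fold lower (6.08 ± 0.159 in scramble and 4.51 ± 0.0739 in OTX2 KD, mean ± SD of 3 arrays, adjusted p = 5.12e-05). The E-protein TCF4, a partner of tissue-specific helix-loop-helix factors, rose 1.83-fold (7.49 ± 0.0464 and 8.36 ± 0.0219, adjusted p = 0.000162). The E-proteins TCF3 (-0.11, 95% CI -0.37 to 0.15) and TCF12 (0.02, 95% CI -0.16 to 0.20) did not pass.

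Cofactors and turnover factors of SNAIL and ZEB moved in both directions. Of 17 measured, 4 passed the test as higher, 7 as lower and 6 in neither direction, beside 39.8% of named genes that passed. The list's median log2 fold change was -0.15. The lower call of SIN3A (-0.30) ended for 5 of 6 single arrays left out (adjusted p up to 0.0741). FBXL14, a ubiquitin ligase subunit for SNAI1 and SNAI2, rose by 0.87 ± 0.0806 (SE, adjusted p = 0.000226), FBXO11 by 0.83 ± 0.0751 (adjusted p = 0.000194), the kinase GSK3B by 0.73 ± 0.0881 (adjusted p = 0.000756) and BTRC by 0.39 ± 0.0825 (adjusted p = 0.0104), all on the log2 scale. Of other ligase subunits for EMT factors, FBXO45 fell by 0.61 (adjusted p = 0.00256) and FBXL5 did not pass (0.17, adjusted p = 0.284). The LIM proteins AJUBA and LIMD1, SNAIL corepressors of 1 family, were 3.28-fold and 2.82-fold lower (adjusted p = 0.000121 and 4.3e-05). Of the CTBP corepressors of ZEB factors, CTBP2 fell by 0.51 (adjusted p = 0.0132), and CTBP1 had a log2 fold change of 0.01 (95% CI -0.16 to 0.18). Protein levels were not measured on the arrays.

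Hairpins of microRNAs that target ZEB and SNAIL RNA were dim. Of 11 measured, 1 rose and 10 did not pass, beside 39.8% of named genes that passed. Mean levels of the 11 lay between 1.39 and 3.74. The one that rose was MIR205, at 3.38 ± 0.0312 in scramble and 4.10 ± 0.102 in OTX2 KD (mean ± SD of 3 arrays, adjusted p = 0.000725). The 5 hairpins of the miR-200 family (MIR200A, MIR200B, MIR200C, MIR141 and MIR429), which repress ZEB1 and ZEB2 in epithelial cells, had log2 fold changes between -0.14 and 0.14. Mature microRNAs were not measured by these clusters.

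VIM, the type III filament of mesenchymal and progenitor cells, was lower after OTX2 KD in all 3 of its clusters. The brightest read 7.10, 7.13 and 7.0 in scramble and 5.68, 5.45 and 5.63 in OTX2 KD, 2.81-fold lower (log2 fold change -1.49 ± 0.0926, SE, adjusted p = 3.67e-05). The dimmer clusters differed by -0.72 ± 0.186 (adjusted p = 0.0246) and -1.58 ± 0.184 (SE, adjusted p = 0.000659). In the first of these the knockdown arrays were uneven, with replicate 2 at 4.56 and replicates 1 and 3 at 5.20. The mean of the 3 clusters gave -1.26 (adjusted p = 0.000147). The strand and the part of the gene that each cluster covers are not given in the sources used here.

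**Figure D3:**
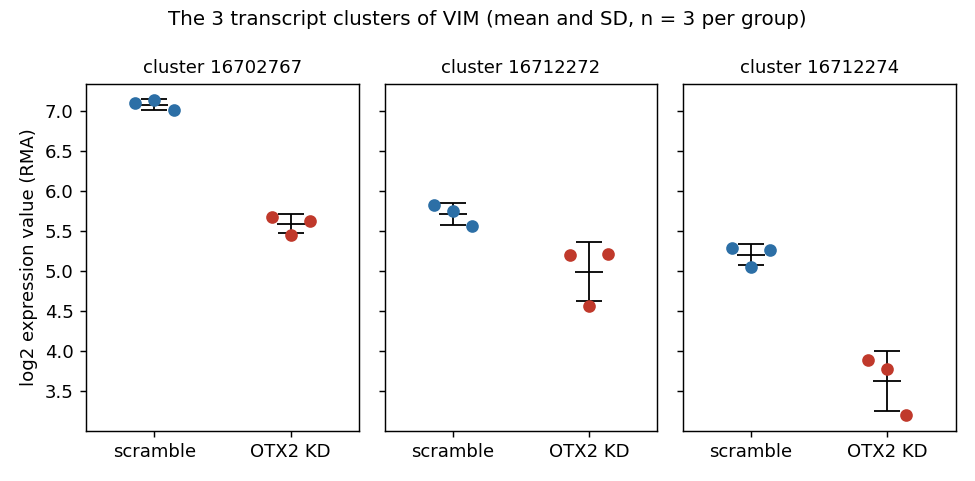
Log2 expression value (vertical axis) of the 3 transcript clusters named VIM on the 3 scramble arrays (blue) and the 3 OTX2 KD arrays (red), with black marks for the mean and SD. OTX2 KD is lower in each, with log2 fold changes of -1.49, -0.72 and -1.58 from left to right.

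Among 9 other filament, lamina and linker genes, 2 passed the test as higher, 4 as lower and 3 in neither direction. The median log2 fold change of these 9 was -0.28, and 39.8% of all named genes passed. NES, the nestin filament of neural stem cells that assembles with vimentin, was 2.11-fold lower (8.55 ± 0.0742 and 7.47 ± 0.255, SD, n = 3, adjusted p = 0.000928), and the lamin LMNB2 was 1.96-fold lower (adjusted p = 0.000292). The neuronal filament PRPH (0.41, adjusted p = 0.0376) and the linker PLEC (0.30, adjusted p = 0.0449) passed narrowly. Neither passed after median centring of the arrays (adjusted p = 0.0805 and 0.131), and the calls ended for 5 of 6 single arrays left out for PRPH (all but OTX2 KD replicate 1, adjusted p up to 0.107) and for 6 of 6 for PLEC (up to 0.131).

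FN1, which encodes fibronectin, the matrix glycoprotein on which cells migrate, moved the other way. It read 3.98, 4.12 and 3.96 in scramble and 5.19, 5.14 and 5.19 in OTX2 KD. The knockdown arrays were nearly equal to each other, and all stood more than 1 log2 unit above the controls. The log2 fold change was 1.16 ± 0.0830 (SE, adjusted p = 6.85e-05), or 2.23-fold higher. In scramble the signal was dim, above 16 of the 21 genes of other tissues and at percentile 57.1, and in OTX2 KD it was above 20 of them.

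Of 18 other matrix glycoproteins and matrix receptors, 4 passed the test as higher, 8 as lower and 6 in neither direction. After median centring or a repeated quantile normalization, 3 passed as higher and 9 as lower. The higher call of EFEMP1 (0.45) ended for 5 of 6 single arrays left out (adjusted p up to 0.136). The median log2 fold change of these 18 was -0.31, and 39.8% of all named genes passed. The heparan sulphate proteoglycan SDC4, a coreceptor for fibronectin, was 6.57-fold lower (7.78 ± 0.0666 in scramble and 5.06 ± 0.0938 in OTX2 KD, mean ± SD of 3 arrays, adjusted p = 3.91e-06), and its relative SDC3, known from neurons, rose 1.94-fold (adjusted p = 0.00184). The microfibril protein FBN2 was 2.73-fold lower and the matrix protein FBLN2 was 1.71-fold higher (adjusted p = 3.98e-05 and 0.000277). The integrin chains were not analysed here.

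LOX, the lysyl oxidase that crosslinks collagen and elastin, was lower. It read 5.59, 6.08 and 5.99 in scramble and 4.30, 4.30 and 4.56 in OTX2 KD. Scramble replicate 1 was the lowest control array, and it still lay 1 log2 unit above the highest knockdown array. The log2 fold change was -1.50 ± 0.148 (SE), or 2.83-fold lower (adjusted p = 0.0003). In OTX2 KD the signal was above 15 of the 21 genes of other tissues, and the fold rests on that dim signal.

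Of the LOX relatives, LOXL1, LOXL2 and LOXL4 were lower and LOXL3 did not pass the test. LOXL4 was 2.97-fold lower (6.33 ± 0.0506 and 4.76 ± 0.0982, SD, n = 3, adjusted p = 2.3e-05) and LOXL1 was 1.56-fold lower (adjusted p = 0.000939). LOXL2, which also stabilizes SNAI1, differed by -0.51 (adjusted p = 0.0233), a call that ended without OTX2 KD replicate 2, scramble replicate 2 or scramble replicate 3 (adjusted p = 0.0595 to 0.0760). LOXL3 did not pass (0.09, 95% CI -0.08 to 0.26). Proteases of the BMP1 family cut the LOX proenzyme and procollagen. TLL1 rose 6.91-fold, from 5.77 ± 0.0512 to 8.56 ± 0.0461 (SD, n = 3, adjusted p = 3.09e-06), and BMP1 rose 2.39-fold (adjusted p = 4.62e-05), whereas TLL2 did not pass. In all, 2 of the 9 measured genes of this list passed as higher, 3 as lower and 4 in neither direction. Of all named genes 39.8% passed, and the median log2 fold change of the list was 0.15. Collagen chains were not analysed here.

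CD44, the cell surface receptor for hyaluronan and a marker used for mesenchymal-like tumour cells, was higher. It read 3.31, 3.40 and 3.46 in scramble and 5.01, 4.78 and 4.54 in OTX2 KD. The knockdown arrays varied more than the controls (SD 0.233 and 0.0763, n = 3), but the lowest of them stood more than 1 log2 unit above the highest control. The log2 fold change was 1.39 ± 0.128 (SE), or 2.61-fold (adjusted p = 0.000219). The control values lay at percentile 46.0 on average and above 9 of the 21 genes of other tissues, so they cannot be told from signal of unexpressed genes, and the fold is uncertain in size.

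Of 14 ligands, synthases, proteases and linkers of CD44, 0 passed the test as higher, 4 as lower and 10 in neither direction. The 0 depended on the setting, with 2 higher calls when only clusters with 1 symbol were tested. There was 1 higher call after a repeated quantile normalization, with the replicate number as a block or with trend and robust variance. Among all named genes 16.6% passed as higher and 23.2% as lower, and the median log2 fold change of the 14 was -0.01. HMMR, a second hyaluronan receptor that also acts at the mitotic spindle, was 8.71-fold lower (7.19 ± 0.114 and 4.07 ± 0.172, SD, n = 3, adjusted p = 5.68e-06). RDX (radixin), which ties CD44 to actin, was 2.01-fold lower (adjusted p = 0.000146). For its relatives EZR and MSN the differences were -0.36 (adjusted p = 0.0114) and 0.21 (95% CI -0.05 to 0.46).

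DSG2 changed most of the 10. It encodes desmoglein, a cadherin of desmosomes, the junctions that anchor filaments between cells, and by that role it is a junction gene and not a mesenchymal one. It read 7.52, 7.64 and 7.90 in scramble and 4.79, 4.32 and 4.43 in OTX2 KD. Every knockdown array was far below every control, and the gap between the groups was wider than the range within either. The log2 fold change was -3.17 ± 0.154 (SE), or 9.01-fold lower (adjusted p = 1.36e-05), and 9 of 14884 named genes had a larger fall. In OTX2 KD the signal was above 18 of the 21 genes of other tissues, at percentile 63.5. Its upstream sequence is shown because DSG2 had the largest change and held the E-box CAGGTG on both strands. The first bases lay 232 and 116 bases before its start. The sequence runs 5′ to 3′ on the gene's strand (GRCh38.p14), with E-boxes in capitals and the second read as its reverse complement CACCTG.
DSG2, chr18:31497927-31498176, plus strand: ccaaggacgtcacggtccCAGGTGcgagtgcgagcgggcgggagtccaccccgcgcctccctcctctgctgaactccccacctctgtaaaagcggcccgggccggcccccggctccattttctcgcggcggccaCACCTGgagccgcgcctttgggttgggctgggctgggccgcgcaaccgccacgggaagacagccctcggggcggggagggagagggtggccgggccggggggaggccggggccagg
Neither OTX2 motif searched was present in this window.

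Of the other desmosomal genes, DSP, PKP4, DSC2 and DSC3 were lower and JUP was higher. DSP, which links desmosomes to filaments, was 7.14-fold lower (8.22 ± 0.139 in scramble and 5.39 ± 0.170 in OTX2 KD, mean ± SD of 3 arrays, adjusted p = 8.3e-06). PKP4 (-0.79, adjusted p = 0.00029) and the desmocollin DSC2 (-0.40, adjusted p = 0.00695) fell less. DSC3 read 3.21 in scramble and 2.63 in OTX2 KD on average (-0.58, adjusted p = 0.0255), a call that ended for 4 of 6 single arrays left out (OTX2 KD replicates 2 and 3, scramble replicates 2 and 3). Both DSC3 means lay below the median level of the 21 genes of other tissues (3.56). JUP (plakoglobin), which also serves adherens junctions, rose by 0.90 ± 0.103 (SE, adjusted p = 0.000586). The desmogleins DSG1, DSG3 and DSG4 and the desmocollin DSC1 had mean levels of 3.07 or less in both groups and did not pass. In all, 1 of 12 measured genes of the list passed as higher, 4 as lower and 7 in neither direction. Of all named genes 39.8% passed, and the median log2 fold change of the list was -0.03. The cadherins CDH1 and CDH2 were not analysed here.

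Few epithelial junction and splicing genes passed the test. Of 27 measured, 1 passed the test as higher, 5 as lower and 21 in neither direction (median log2 fold change -0.02), beside the 39.8% of named genes that passed. The median level of the 27 genes was 3.90, below the 4.87 of all named genes, and brighter genes passed more often. The shares are therefore not directly comparable. The tight junction protein OCLN was 2.97-fold lower (5.0 ± 0.154 and 3.43 ± 0.190, SD, n = 3, adjusted p = 0.00012). The epithelial factor GRHL3 was 2.00-fold lower (3.82 ± 0.339 and 2.82 ± 0.219, SD, n = 3, adjusted p = 0.00636). The median level of the 21 genes of other tissues was 3.56, above the mean of GRHL3 (3.32) and above OCLN in OTX2 KD. Both folds are therefore uncertain in size. The only higher call was the keratin KRT18, which rose by 0.69 at its brighter cluster (adjusted p = 0.000697). A dimmer cluster of the same gene did not pass (0.05). The lower call of CRB3 (-0.35, adjusted p = 0.0464) ended for 6 of 6 single arrays left out (adjusted p up to 0.115). EPCAM, ESRP1 and ESRP2, which define epithelial cells by adhesion and splicing, lay at 2.43 to 4.47 and did not pass.

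Contractile and stromal genes of mesenchymal cells had changes in both directions. Of 11 measured, beside 39.8% of named genes that passed, 2 passed the test as higher, 1 as lower and 8 in neither direction (median log2 fold change 0.08), a median that moved to -0.00 after median centring or a repeated quantile normalization. The tropomyosins parted, TPM1 rising 2.16-fold (adjusted p = 0.000157) and TPM2 falling 1.87-fold (adjusted p = 0.000454). CALD1 (0.30, adjusted p = 0.0271) did not pass after median centring (adjusted p = 0.108), and its call ended for 5 of 6 single arrays left out (all but scramble replicate 3, adjusted p up to 0.0793). S100A4 and TAGLN, markers of fibroblasts and smooth muscle, had log2 fold changes of -0.02 (95% CI -0.34 to 0.30) and 0.08 (95% CI -0.19 to 0.36).

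The TGF-beta arm, a classical inducer of SNAIL and ZEB, held changes in both directions. Of 12 measured, 4 passed the test as higher, 3 as lower and 5 in neither direction, beside 39.8% of named genes that passed. The list's median log2 fold change was 0.12. The higher call of SMAD2 (0.30) ended for 5 of 6 single arrays left out (adjusted p up to 0.0987) and after median centring (0.114). The latent TGF-beta binding proteins parted, LTBP1 falling 3.22-fold (adjusted p = 1.99e-05) and LTBP3 and LTBP4 rising 2.45-fold and 1.93-fold (adjusted p = 5.39e-05 and 0.000463). The corepressor TGIF1 was 2.64-fold lower (adjusted p = 5.8e-05), and the signal transducer SMAD3, was 2.23-fold lower (adjusted p = 0.000676). The TGF-beta ligands and receptors were not analysed here.

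**Figure D4:**
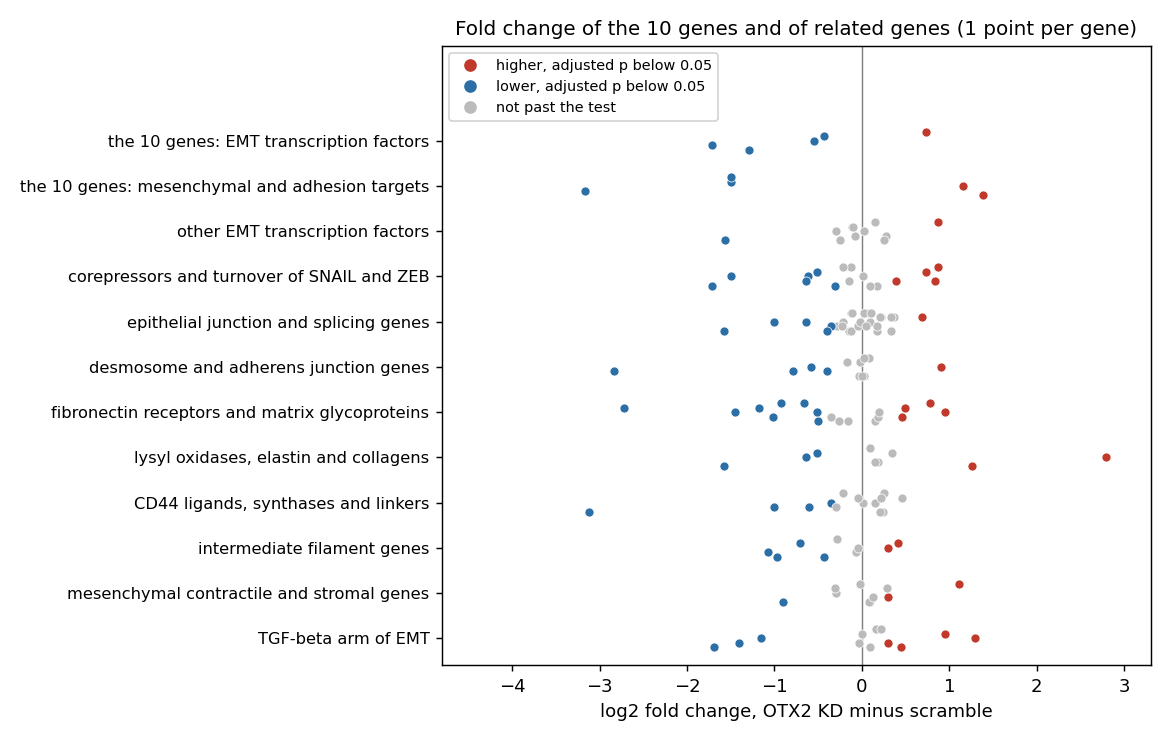
Log2 fold change (OTX2 KD minus scramble) of the 10 genes in the top rows and of related genes below, 1 point per gene at its brightest cluster, red for higher and blue for lower at an adjusted p below 0.05 and grey for not past the test. The related lists hold points on both sides of 0, with medians between -0.31 and 0.15.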

How the data were processed

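The authors measured RNA of D283 tumorspheres on Affymetrix Human Gene ST arrays, 3 for OTX2 KD and 3 for scramble, with groups and replicate numbers taken from the titles. The deposited values were log2 expression values, which the authors made with RMA in Affymetrix Expression Console. The table held 53617 transcript clusters, of which 16098 had 1 gene symbol, 0 several and 37519 none. All clusters were tested with lmFit and eBayes of limma 3.58.1, two-sided, under R 4.3.3, with Benjamini-Hochberg adjustment over all clusters, without a filter on dim clusters. A change was called at an adjusted p below 0.05. The number of arrays limits the precision.

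The 10 genes and the lists of related genes were chosen with earlier results of these data known, and no set test was run. Named genes were OTX2, the 10 genes, up to 2 called genes with the greatest rise and 2 with the greatest fall per list, and the listed genes of the SNAI, TWIST, LOXL, DSC, DSG and TCF families. Other listed genes (GSK3B, BTRC, FBXO45, FBXL5, CTBP1, CTBP2, SIN3A, the miR-200 hairpins, EFEMP1, TLL2, EZR, MSN, CRB3, EPCAM, ESRP1, ESRP2, S100A4, TAGLN, SMAD2 and SMAD3) were named after their values were seen. CSN2 was left out of its list, since that symbol names casein on the array. The table has no detection p, so 21 genes of other tissues served as a reference for dim clusters, of which 2 rose and 1 fell. The alternatives tried were 2 scalings, a block for replicate number, restrictions to brighter or named clusters, trend and robust variance, fold limits, an unadjusted p, the choice of cluster and leaving out each array. The fit was tested on simulated data. Promoter sequences came from RefSeq (GRCh38.p14). Python 3.11.15 with matplotlib 3.10.9 drew the figures.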

Additional observations from a re-analysis of the deposited data

How the results depend on the processing

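The 10 genes kept their direction under every alternative run, and of 133 values for them 124 stayed on their side of the threshold and 9 did not. The 9 were in TWIST1, ZEB1 and ZEB2. Against a 1.5-fold limit TWIST1 (-0.55, adjusted p = 1), ZEB1 (-0.44, adjusted p = 1) and ZEB2 (0.74, adjusted p = 0.423) did not pass in limma. TWIST1 did not pass without OTX2 KD replicate 1 (-0.52), OTX2 KD replicate 2 (-0.48) or scramble replicate 2 (-0.46), nor ZEB1 without scramble replicate 2 (-0.40) or scramble replicate 3 (-0.42). With single arrays left out, log2 fold changes ranged as follows: SNAI1 -1.36 to -1.19, SNAI2 -1.77 to -1.62, TWIST1 -0.65 to -0.46, ZEB1 -0.49 to -0.37, ZEB2 0.72 to 0.76, FN1 1.13 to 1.21, VIM -1.54 to -1.42, CD44 1.27 to 1.5, DSG2 -3.31 to -3.07, LOX -1.65 to -1.40. Of the 10 genes, 8 to 10 passed then (8 without scramble replicate 2), and 7 passed with a limit of 1.5-fold in the test or of 2-fold beside it.

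With the replicate number as a block, ZEB1 did not pass (-0.44, adjusted p = 0.0511), no other call among the 10 changed, and 12980 clusters passed. Same-numbered arrays did not deviate together (r = -0.0559, -0.0228 and -0.000718), so the numbers were not taken as pairs.

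Over all clusters 14966 passed, and 12129 to 13128 with single arrays left out. Fewer passed among clusters with 1 symbol (7367), against a 1.5-fold limit (3401), with at least 2-fold change (3613) and with an unadjusted p and at least 2-fold change (3661), each a narrower test or set by construction. The split of higher and lower calls was 7932 and 7034, and 6027 and 8611 after median centring. The choice among the clusters of VIM was added after seeing the data. Without a detection p, folds of genes near the dim reference are uncertain in size.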
